A study of Mus musculus with 6 samples.

Results

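The microRNA processing and silencing machinery was followed through 10 genes: Drosha and Dgcr8, Xpo5, Dicer1, the Argonautes Ago1, Ago2 and Ago3, the scaffold genes Tnrc6a and Tnrc6b, and Hnrnpk, which hosts one of the miR-7a hairpins. Every probe set whose single gene symbol was one of these genes was taken, whatever its value, which gave 37 of the 45101 probe sets on the array. In all, 34958 probe sets had a single symbol, for 18194 genes. Levels are log2 intensities deposited by the authors, and all differences below are differences of these log2 values.

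The 6 arrays held RNA from MIN6 (4 arrays), an insulin-secreting mouse beta-cell line, and from mouse pancreatic islets (2 arrays). The MIN6 cells had been infected with 1 of 3 adenoviruses: AdGFP, which makes green fluorescent protein (1 array), AdmiR7a, which makes miR-7a (2 arrays), or AdmiR7b, which makes miR-7b (1 array). All infections shared a multiplicity of infection of 250, 48 h of infection, 4.5 g/l glucose and 2% serum, so the AdGFP cells carried a virus too. Islets came from C57BL/6 mice, 1 array from mice with a beta-cell specific deletion of miR-7a2 made by Lox/Cre recombination (KO) and 1 from wild-type mice (WT). The Cre driver, the age and sex of the mice and the number of mice behind each islet array are not given in the sources used here. The islets' other cell types kept the gene, and the labels name no deletion of Mir7-1 or Mir7b. MIN6 is 1 line, and whether the AdmiR7a duplicates were separate cultures is not stated, so p-values measure only the spread between these arrays, which may be technical.

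A microRNA is cut out of its primary transcript in the nucleus by the Microprocessor, in which the nuclease Drosha works with the RNA-binding protein Dgcr8. Exportin 5 (Xpo5) carries the hairpin to the cytoplasm, Dicer1 cuts it to a duplex, and an Argonaute keeps the mature strand and uses its seed to find messages. Tnrc6 proteins bind the Argonaute and recruit deadenylases, which shorten the poly(A) tail of the message. In beta cells, miR-7 is an abundant microRNA, and loss of Dicer1 in the mouse beta cell is known to impair insulin production.

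The microRNAs that the vectors carry are shown first, because the pooled comparison rests on their shared seed. The mature strands, from RefSeq (GRCm38.p6), are printed with the seed, bases 2 to 8, in capitals.
mmu-miR-7a-5p: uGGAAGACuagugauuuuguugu
mmu-miR-7b-5p: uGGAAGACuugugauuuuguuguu
The seeds are identical. The strands are 23 and 24 bases long, and counted from the 5′ end they differ at A10U, where the first letter is miR-7a's, and by 1 further base at the end of miR-7b.

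3 genomic hairpins give these strands, and they are the substrates of Drosha and Dicer1. They are printed with the mature 5p strand in capitals, and each has GRCm38.p6 coordinates. Mir-7a-1 lies at chr13:58392779-58392886 on the minus strand, inside Hnrnpk on the same strand. Mir-7a-2, the hairpin deleted in KO beta cells, lies at chr7:78888277-78888373 on the plus strand. Mir-7b lies at chr17:56242988-56243098 on the plus strand.
mir-7a-1: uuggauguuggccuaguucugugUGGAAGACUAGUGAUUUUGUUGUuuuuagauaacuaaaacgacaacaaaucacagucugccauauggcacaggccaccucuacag
mir-7a-2: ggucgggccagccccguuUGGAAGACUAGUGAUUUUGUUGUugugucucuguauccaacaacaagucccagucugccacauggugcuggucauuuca
mir-7b: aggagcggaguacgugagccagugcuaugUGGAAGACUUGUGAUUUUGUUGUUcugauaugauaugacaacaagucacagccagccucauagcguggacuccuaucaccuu
The array named 0 probe sets for Mir7-1, 0 for Mir7-2 and 0 for Mir7b. Neither the vectors' products nor the deletion could therefore be checked on these arrays.

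Upper quartiles ran from 7.95 to 8.01 over the 6 arrays, and 28.2% to 29.7% of the values were at the floor of 2.17. The number of arrays limits precision. Beta-cell markers were high in MIN6 (Ins2 15.69 to 15.92, Iapp 16.06 to 16.16), except Slc2a2, the glucose transporter GLUT2, which was 3.84 with AdGFP and 2.52 on each miR-7 array against 14.15 or more in islets. MIN6 also gave signal for the alpha-cell hormone gene Gcg (12.71 to 13.35) and the delta-cell hormone gene Sst (9.28 to 9.64). Of the 3 alpha-cell markers measured, 2 (Gcg and Ttr) were at 4 or more on each MIN6 array. The third, Irx2, was below 4 there (3.34 to 3.38). Of the 3 delta-cell and pancreatic polypeptide markers, 2 (Sst and Ppy) were at 4 or more, and Hhex was at the floor. Acinar markers were below 4 on all arrays for 3 of 3 genes measured. Differences across all tested probe sets had an SD of 0.221 between the AdmiR7a arrays and of 0.503 to 0.582 between AdGFP and the miR-7 arrays.

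In MIN6 cells, 1 probe set of the machinery rose with miR-7: Tnrc6b 1426545_at, for a scaffold that links Argonaute to the deadenylases, at 1.48 times the AdGFP level. Among the 3 miR-7 arrays together, no probe set of the 10 genes fell. Dicer1 1460571_at stood highest by size, at 1.66 times AdGFP, and Ago1 lowest, at 0.668 times, and neither passed the test. Both Drosha probe sets differed by no more than 0.03 in size, and those of Tnrc6a by no more than 0.16. Here "rose" and "fell" mean an adjusted p (Benjamini-Hochberg) under 0.05, taken over the 20177 probe sets with a mean of at least 4 in MIN6, in a two-sided limma fit that pools the AdmiR7a and AdmiR7b arrays against AdGFP.

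Of the 37 probe sets, 30 passed the filter in MIN6 and 7 lay below 4 in both systems. Those 7 were Drosha 1438440_at, Dgcr8 1422981_at and 1446169_at, Ago3 1458476_at, Tnrc6a 1439245_at and 1457295_at, and Hnrnpk 1454692_x_at. Each of the 10 genes kept at least 1 probe set. Tnrc6a 1439246_x_at (7.08) and Tnrc6b 1460024_at (5.53) passed but had an identical value on all 4 MIN6 arrays, as did 69 probe sets in all (0.342%), so 28 could vary.

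**Figure D1:**
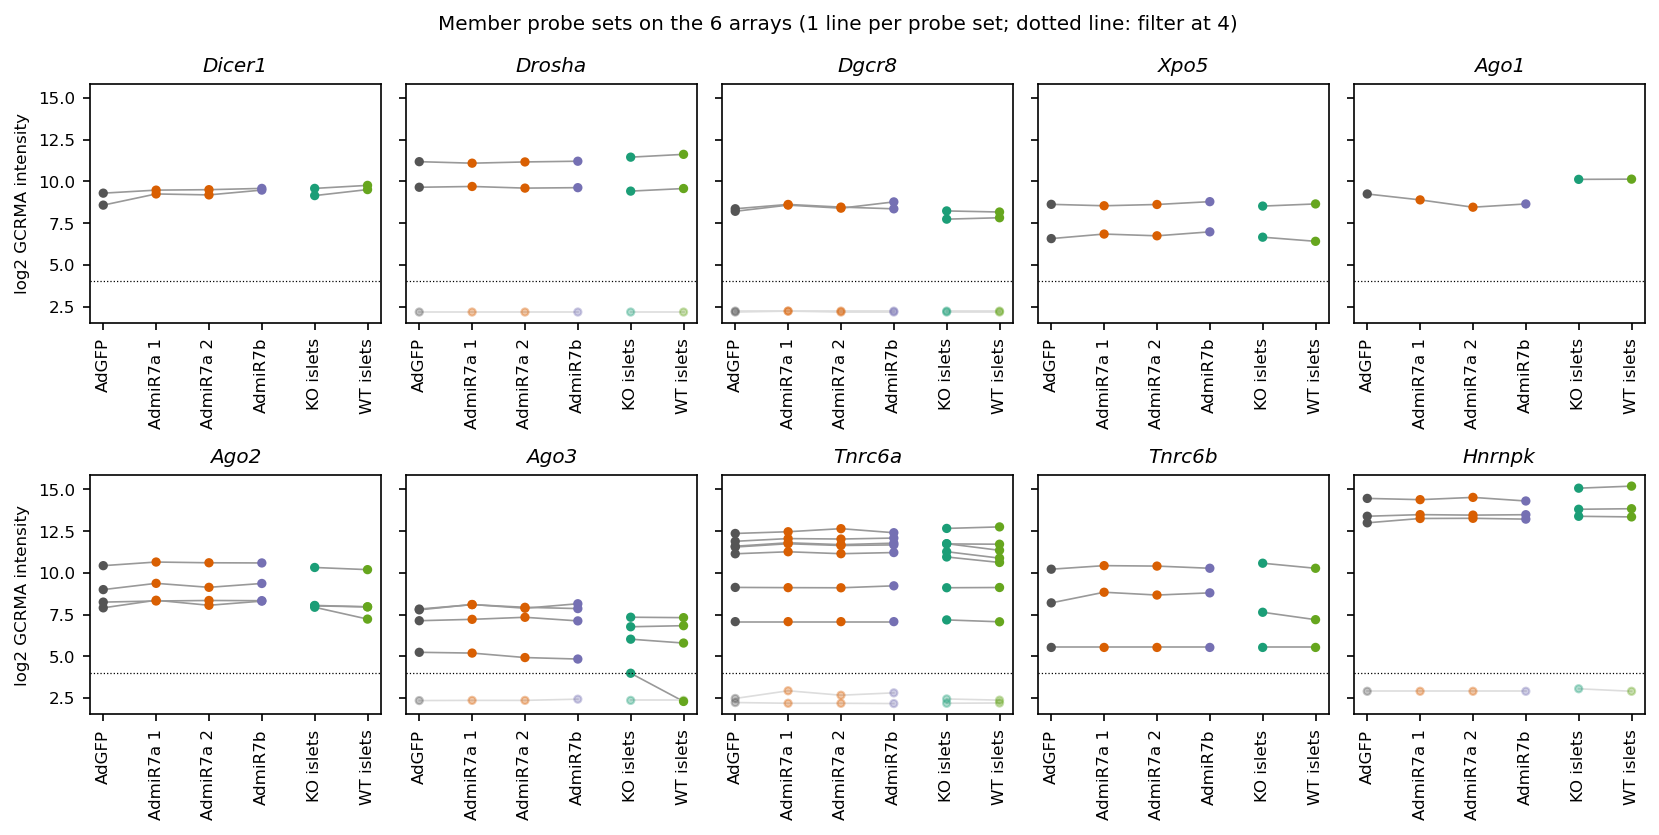
Log2 level of the 37 probe sets of the 10 genes on the 4 MIN6 and 2 islet arrays, 1 panel per gene, with 1 line per probe set and 1 point per array; pale points are the probe sets below 4 in both systems, the dotted line marks 4, and only levels of the same probe set can be compared. Drosha runs almost flat over the MIN6 arrays, Ago1 is lower on the miR-7 arrays and higher in islets, and Ago2 1426366_at drops from MIN6 to islets.

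Drosha, the nuclease that cuts the primary transcript, was level. Probe set 1428656_at read 9.65 with AdGFP, 9.70 and 9.60 with AdmiR7a and 9.62 with AdmiR7b. The AdGFP value lay within the range of the miR-7 arrays, and the pooled difference was -0.01 ± 0.08 (SE; 95% interval -0.23 to 0.22; limma adjusted p = 0.945). Probe set 1438505_s_at read 11.18 with AdGFP, 11.09 and 11.17 with AdmiR7a and 11.21 with AdmiR7b. Its groups overlapped as well, with a difference of -0.03 (95% interval -0.26 to 0.21; limma adjusted p = 0.843). Both intervals leave out a change of 0.58, which is about 1.5 times, in either direction.

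Dgcr8, the RNA-binding partner of Drosha, had 2 probe sets above the filter, and they differed in size. Probe set 1435439_at read 8.21 with AdGFP, 8.58 and 8.39 with AdmiR7a and 8.77 with AdmiR7b. All miR-7 arrays were above AdGFP, but the difference of 0.37 ± 0.17 (95% interval -0.13 to 0.88) did not pass the test (limma adjusted p = 0.216). Probe set 1455311_at read 8.36 with AdGFP, 8.62 and 8.46 with AdmiR7a and 8.36 with AdmiR7b. Its AdmiR7b value was that of AdGFP, and the difference was 0.12 (95% interval -0.26 to 0.50; limma adjusted p = 0.560). Both probe sets share a source sequence in the array's annotation, so they are not independent readings of Dgcr8.

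Xpo5, the exporter of hairpins, read 8.62 with AdGFP, 8.54 and 8.62 with AdmiR7a and 8.79 with AdmiR7b at 1428560_at. The AdGFP value lay inside the miR-7 range, with a difference of 0.02 (95% interval -0.34 to 0.39; limma adjusted p = 0.914). At 1451468_s_at it read 6.57 with AdGFP, 6.84 and 6.74 with AdmiR7a and 6.98 with AdmiR7b. There AdGFP was below the other arrays, and the difference of 0.28 (95% interval -0.07 to 0.63) did not pass (limma adjusted p = 0.190).

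Dicer1, which cuts the hairpin to the mature duplex, was above AdGFP on every miR-7 array with both of its probe sets. Probe set 1460571_at read 8.58 with AdGFP, 9.25 and 9.19 with AdmiR7a and 9.48 with AdmiR7b. The gap between AdGFP and the lowest miR-7 array was larger than the spread of the miR-7 arrays, and the difference was 0.73 ± 0.15 (95% interval 0.30 to 1.15). It lay just outside the threshold (limma adjusted p = 0.0549), and over the alternative settings its adjusted p ran from 0.0265 to 0.219. Probe set 1427941_at read 9.29 with AdGFP, 9.48 and 9.50 with AdmiR7a and 9.58 with AdmiR7b. Its difference was smaller, 0.22 ± 0.08, with a 95% interval that reached 0 (limma adjusted p = 0.137).

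The Argonautes, which hold the microRNA and bind the message, did not move one way. Ago1 1434331_at, the gene's single probe set, read 9.25 with AdGFP, 8.89 and 8.45 with AdmiR7a and 8.65 with AdmiR7b. AdGFP was highest, although the AdmiR7a arrays themselves stood apart, and the difference of -0.58 ± 0.20 had an unadjusted p of 0.0496 in limma and an adjusted p of 0.132. Over the alternatives the adjusted p for Ago1 ran from 0.0794 to 0.440, so it passed in none of them.

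Ago2, the Argonaute able to cut a fully matched message, was above AdGFP on every miR-7 array with 4 of its 4 probe sets, by small amounts. At 1455389_s_at it read 10.43 with AdGFP, 10.65 and 10.61 with AdmiR7a and 10.60 with AdmiR7b. The miR-7 arrays lay close together there, and the difference was 0.18 (95% interval -0.02 to 0.38; limma adjusted p = 0.151). The differences of 1426366_at, 1435636_at and 1455294_at were 0.29, 0.08 and 0.34, with limma adjusted p of 0.209, 0.424 and 0.209. Probe sets 1435636_at and 1455389_s_at carry the same accession in the array's annotation, so they are not independent readings of Ago2.

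Ago3 had 4 probe sets in the test, and they did not share a direction. Probe set 1441063_at read 7.78 with AdGFP, 8.11 and 7.88 with AdmiR7a and 8.15 with AdmiR7b. Probe set 1442009_at read 5.24 with AdGFP, 5.19 and 4.93 with AdmiR7a and 4.84 with AdmiR7b. The first was lowest with AdGFP and the second highest, with differences of 0.26 and -0.25 that did not pass (limma adjusted p = 0.266 and 0.362). Probe sets 1435904_at and 1441089_at differed by 0.13 and 0.09 (limma adjusted p = 0.485 and 0.596).

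Tnrc6b, a scaffold of the GW182 family that docks the deadenylases on Argonaute, held the 1 call. Probe set 1426545_at read 8.20 with AdGFP, 8.84 and 8.67 with AdmiR7a and 8.80 with AdmiR7b. All miR-7 arrays were above AdGFP, and the rise was 0.57 ± 0.10 (95% interval 0.28 to 0.86; limma adjusted p = 0.0446). The call was lost when any one of the 3 miR-7 arrays was left out (limma adjusted p 0.117 to 0.132), while the difference stayed between 0.54 and 0.62. The gene's other varying probe set, 1436982_at, read 10.22 with AdGFP, 10.43 and 10.41 with AdmiR7a and 10.28 with AdmiR7b. It too was lowest with AdGFP, with a difference of 0.15 that did not pass (limma adjusted p = 0.334).

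Tnrc6a, the family member with the most probe sets, was nearly level. Its 6 varying probe sets differed by 0.02 to 0.16, with limma adjusted p from 0.182 to 0.890. At 1434899_s_at it read 11.89 with AdGFP, 12.06 and 12.03 with AdmiR7a and 12.09 with AdmiR7b, so AdGFP was lowest by a small step. AdGFP was also below every miR-7 array at 1425036_a_at, 1439244_a_at, 1455128_x_at and 1455141_at. The exception was 1434898_at, which read 9.13 with AdGFP, 9.12 and 9.11 with AdmiR7a and 9.22 with AdmiR7b, where the groups overlapped. Probe sets 1434898_at, 1434899_s_at and 1455141_at share a source sequence in the array's annotation, so they are not independent readings of Tnrc6a.

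Hnrnpk, an RNA-binding protein gene whose transcript contains the mir-7a-1 hairpin, had 3 probe sets in the test, none of which passed. At 1448176_a_at it read 13.00 with AdGFP, 13.26 and 13.27 with AdmiR7a and 13.22 with AdmiR7b. The miR-7 arrays lay close together and above AdGFP, and the difference of 0.25 ± 0.07 (95% interval 0.05 to 0.45) did not pass (limma adjusted p = 0.0877; 0.0448 to 0.179 over the alternatives). At 1460547_a_at it read 14.46 with AdGFP, 14.39 and 14.53 with AdmiR7a and 14.31 with AdmiR7b. Those groups overlapped, with a difference of -0.06 (limma adjusted p = 0.753), and 1423684_at differed by 0.09 (limma adjusted p = 0.413).

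**Figure D2:**
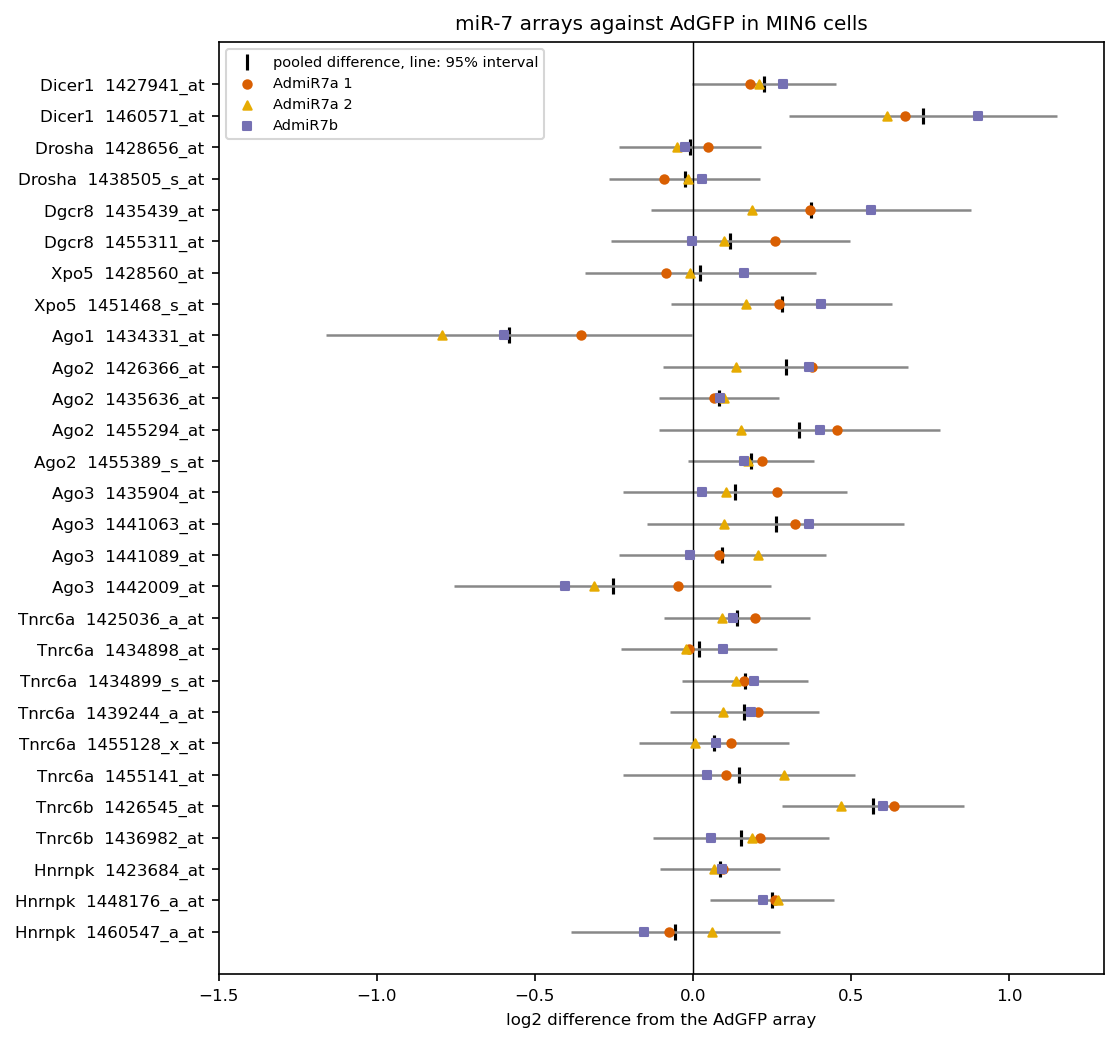
Log2 difference from the AdGFP array for the 28 varying probe sets: the tick is the pooled difference of the 3 miR-7 arrays, the line its 95% interval from limma, and the symbols are the single arrays. Tnrc6b 1426545_at (0.57) and Dicer1 1460571_at (0.73) lie farthest right, Ago1 (-0.58) farthest left, and most other intervals include 0.

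Read against the whole array, the machinery gave few calls. Over all tested probe sets 7.9% rose, against 1 of 30 here, and 8.4% fell, against 0 of 30. At an unadjusted p under 0.05, limma counted 4 of the 30 and 7604 of all 20177. By size, 2 of the 30 differed by at least 0.58, against 19.6% of all tested, and 21 of 30 had a 95% interval wholly within 0.58 of 0, against 46.1%. The 21 include the 2 probe sets with 1 value on all 4 MIN6 arrays, whose difference of 0 was fixed. Such probe sets were 0.342% of all tested, so these 2 raise the share of the 30. AdGFP was below all 3 miR-7 arrays for 19 of the 30 (41.4% of all tested) and above them for 2 (35.1% of all tested). The pooled difference was above 0 for 23 of the 30 (53.4% of all tested), and its median was 0.14 for the 30 and 0.03 for all. These shares describe a small set whose probe sets share genes, and nothing in them was tested.

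Taken alone against AdGFP, the AdmiR7a pair gave no call in limma, with 1 residual degree of freedom, among the 30 or among all tested (0%). At an unadjusted p under 0.05 there were 3 of the 30 and 6401 of all. For AdmiR7b, with 1 array, probe sets were counted by size only. Dicer1 1460571_at (0.90) and Tnrc6b 1426545_at (0.60) were higher by at least 0.58, against 10.5% of all tested, and Ago1 (-0.60) was lower by that size, against 13.7%. None of the 30 reached a difference of 1 there, which 8.67% of all tested did (3.17% higher and 5.5% lower). All these comparisons share the AdGFP array.

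The miR-7a and miR-7b vectors differ in the mature strand outside the seed. Their arrays differed little over all tested probe sets, where AdmiR7b minus AdmiR7a had an SD of 0.22 and a median of 0.003. For this machinery the difference ran from -0.22 (Ago3 1442009_at) to 0.28 (Dgcr8 1435439_at; 95% interval -0.19 to 0.76). Of the 28 varying probe sets, 24 differed by under 0.2, a share that was not counted over all tested. In limma 0 of 30 passed, as did 0% of all tested, and at an unadjusted p under 0.05 there were 0 of the 30 and 1408 of all. The other differences above 0.2 in size were Dicer1 1460571_at (0.26; 95% interval -0.01 to 0.53) and Xpo5 1428560_at (0.21; 95% interval -0.08 to 0.50). With 1 AdmiR7b array the test does not show that the vectors act alike.

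In islets, KO and WT were 1 array each, so values are given with no replicate check and no p, and probe sets were counted by a difference of at least 0.58. For this machinery the arrays were close: 29 probe sets had a mean of at least 4, and 1 of them, Ago2 1426366_at, was higher in KO by that size, against 8.24% of the 20794 probe sets tested. None was lower by that size, against 5.31%, and none reached a difference of 1, against 4.76% (3.43% higher and 1.32% lower). The median KO minus WT difference was 0.03 for the 29 and -0.00 for all, and 16 of the 29 were above WT (48.1% of all tested).

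Drosha was slightly lower in KO with both probe sets: 1428656_at read 9.42 in KO and 9.57 in WT, and 1438505_s_at read 11.45 and 11.62. Dgcr8 1435439_at read 7.74 in KO and 7.82 in WT, and 1455311_at read 8.23 and 8.16. Xpo5 1428560_at read 8.52 in KO and 8.65 in WT, and 1451468_s_at read 6.66 and 6.41. For Dgcr8 and for Xpo5, the paired probe sets thus pointed in opposite directions, by small amounts.

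Dicer1 was lower in KO than in WT with both probe sets. In MIN6 both were higher with added miR-7 than with AdGFP, though neither passed the test there. Probe set 1460571_at read 9.15 in KO and 9.51 in WT, a difference of -0.36. Probe set 1427941_at read 9.58 in KO and 9.76 in WT, a difference of -0.18. Without replicates these cannot be set against an error.

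Ago2 1426366_at, the largest difference in islets, read 7.94 in KO and 7.23 in WT, which is 1.64 times WT. The gene's other probe sets were much closer: 1435636_at read 8.02 and 7.96, 1455294_at read 8.05 and 7.97, and 1455389_s_at read 10.32 and 10.19. All 4 were thus above WT, by 0.06 to 0.71, and the larger size rests on 1 probe set. Ago1 1434331_at read 10.12 in KO and 10.13 in WT, which is almost the same level. Ago3 1435904_at read 7.34 and 7.32, 1441063_at read 6.77 and 6.84, and 1441089_at read 6.03 and 5.79. Ago3 1442009_at read 3.98 in KO and 2.29 in WT, but it lay below the filter, close to the floor in WT, and was not counted.

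None of the Tnrc6 probe sets differed by 0.58 between KO and WT. Tnrc6b 1426545_at read 7.64 in KO and 7.20 in WT, a difference of 0.44, and 1436982_at read 10.58 and 10.28, a difference of 0.30. Tnrc6a 1425036_a_at, 1439244_a_at and 1455128_x_at were higher in KO by 0.39, 0.40 and 0.33, while 1434898_at, 1434899_s_at and 1455141_at differed by -0.01, 0.02 and -0.09. Probe sets of the same gene therefore did not give 1 size. Tnrc6b 1426545_at was thus higher in KO islets, by a difference with no test, and rose with miR-7 in MIN6.

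Hnrnpk, host of the miR-7a hairpin that was not deleted, read 13.81 in KO and 13.85 in WT at 1423684_at. It read 13.39 and 13.36 at 1448176_a_at, and 15.08 and 15.20 at 1460547_a_at. All 3 differences were under 0.2 in size, as were 18 of 27 probe sets, leaving out the 2 with 1 value on all MIN6 arrays. The share under 0.2 was not counted over all tested probe sets, whose KO minus WT differences had an SD of 0.461.

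Islets hold several cell types, and fewer cells of a type cannot be told apart from less RNA per cell. Summed log2 levels of the endothelial markers (3 of 3 at 4 or more) were 21.46 in KO and 22.42 in WT, a gap that lay in Pecam1 (5.19 and 6.30), while Cdh5 and Kdr were slightly higher in KO. The ductal marker Krt19 read 4.45 in KO and 2.68 in WT, with Sox9 and Cftr at or near the floor (ductal sums 8.85 and 7.08). Those of the immune markers (3 of 4, Cd3e at the floor) were 24.0 and 22.82, and those of the stellate and fibroblast markers (2 of 3, Col1a1 near the floor) were 18.56 and 19.09. The part of these cell types in the KO minus WT values was not tested. A sign of RNA quality, how far the 3′ actin control exceeds the 5′ one, was 2.65 for KO and 2.77 for WT, and the same measure for Gapdh was 0.83 and 0.69.

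**Figure D3:**
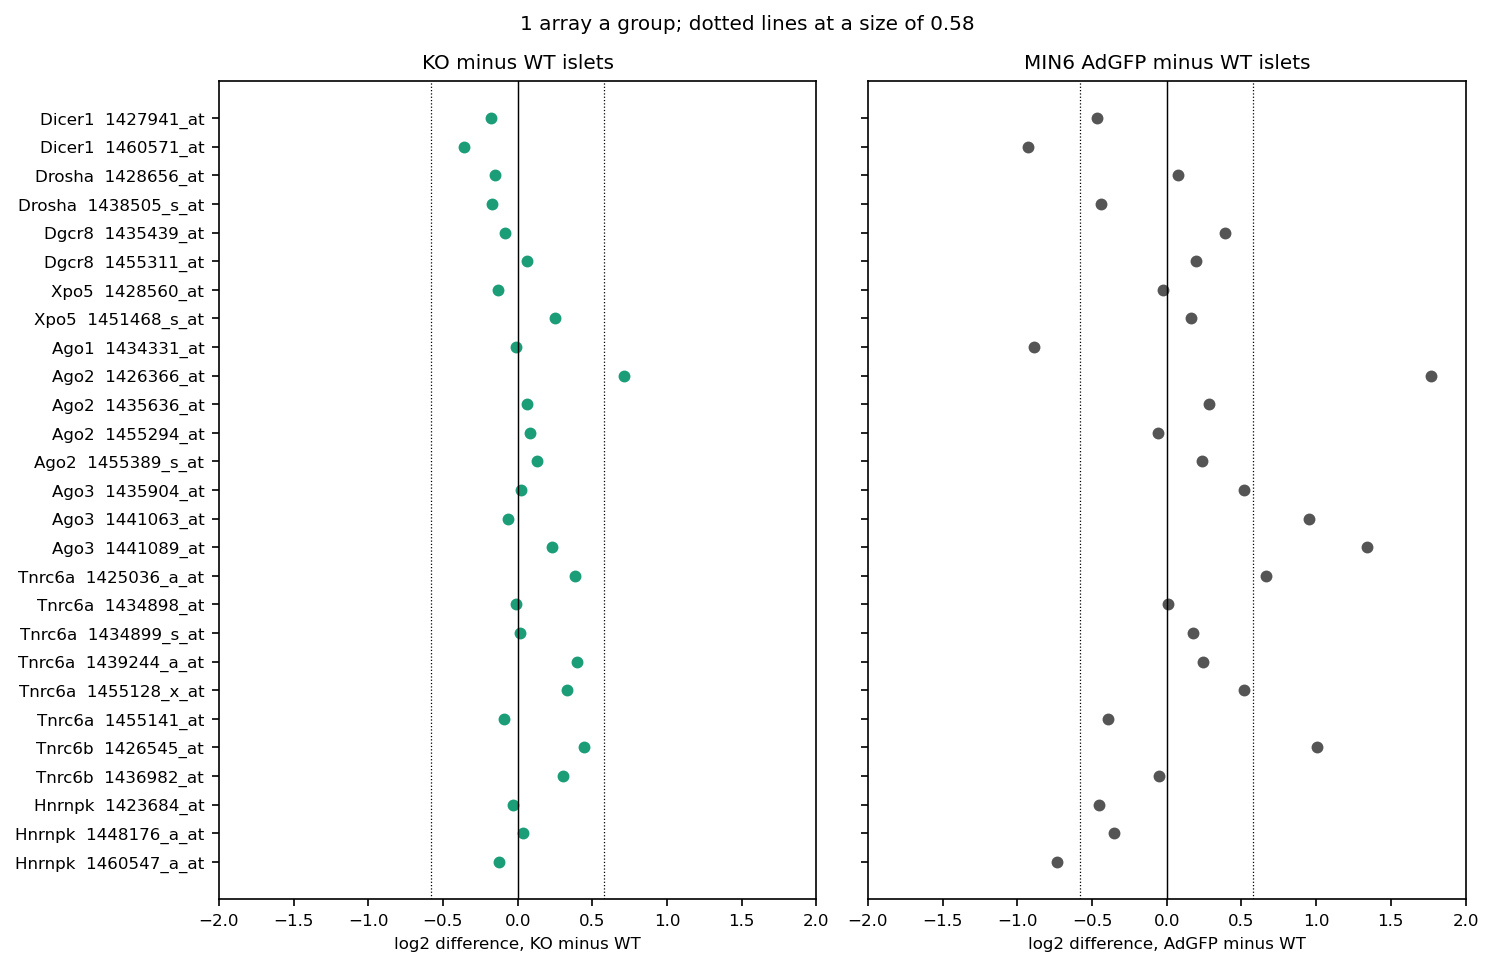
Log2 difference of 27 probe sets of the 10 genes (the 29 tested in islets less the 2 with 1 value on all MIN6 arrays), KO minus WT islets and AdGFP-infected MIN6 minus WT islets, with 1 array per group and no error bars. KO minus WT values lie between -0.36 and 0.44 apart from Ago2 1426366_at (0.71), while MIN6 minus WT values spread from -0.93 to 1.77.

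Set against WT islets, AdGFP-infected MIN6 cells differed by at least 0.58 at 8 of 29 probe sets, against 59.2% of the 21145 tested. Higher in MIN6 were 5 of them (29.8% of all tested) and lower 3 (29.4% of all tested). This split turned with 1 value per gene, to 0 higher and 2 lower of 10 genes by the highest probe set, and to 1 higher and 2 lower by gene means. The median moved from 0.08 to -0.22 by the highest probe set and was 0.11 by gene means. A difference of 1 or more was reached by 3 of the 29, all higher in MIN6, against 41% of all tested (20.5% higher and 20.6% lower). These systems differ in cell makeup, culture and infection, and each is 1 array, so none of this was tested.

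Ago2 1426366_at was the largest of these, at 9.00 in AdGFP cells against 7.23 in WT islets. The other Ago2 probe sets again differed less, from -0.06 to 0.29. Ago3 was higher in MIN6 with every probe set above the filter: 1441089_at read 7.13 against 5.79, 1441063_at 7.78 against 6.84 and 1435904_at 7.83 against 7.32. Tnrc6b 1426545_at read 8.20 against 7.20 and Tnrc6a 1425036_a_at 11.55 against 10.88. Lower in MIN6 were Dicer1 1460571_at (8.58 against 9.51), Ago1 (9.25 against 10.13) and Hnrnpk 1460547_a_at (14.46 against 15.20). Drosha, Dgcr8 and Xpo5 all differed by under 0.58.

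Over all 6 arrays, every MIN6 array was above both islet arrays at 14 of the 30 probe sets (39.8% of all with a mean of at least 4) and below both at 7 (35.1% of those). The 14 include Ago3 1442009_at, at 4.84 to 5.24 in MIN6, 3.98 in KO and 2.29 in WT. Its mean reached 4 only through the MIN6 arrays, so its place in this count is tied to the filter. Ago2 1426366_at ran from 9.00 to 9.37 in MIN6 and from 7.23 to 7.94 in islets. Ago1 lay at 8.45 to 9.25 in MIN6 and 10.12 to 10.13 in islets. For these 2 probe sets the systems did not overlap, whereas Ago2 1455294_at ran from 7.91 to 8.36 in MIN6 and from 7.97 to 8.05 in islets. The same 3′ excess of actin was 1.43 to 1.48 in MIN6 and 2.65 to 2.77 in islets, and that of Gapdh -0.00 to 0.05 and 0.69 to 0.83. Endothelial, immune and stellate markers were below 4 on each MIN6 array, with sums of 7.09 to 7.17, 8.84 to 8.88 and 6.52 to 6.54. Their part in the MIN6 and islet levels was not tested.

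Around the 10 genes, 6 lists of cofactors, chosen with earlier results of these data known, were followed in the pooled MIN6 fit. Most of their members did not pass either; over all tested probe sets, 7.9% rose and 8.4% fell. Every call in these lists was lost when any one of the 3 miR-7 arrays was left out, as limma then called 0 of the 20177 probe sets. Among cofactors of the Microprocessor, 32 probe sets of 11 genes gave 0 that rose and 1 that fell, with a median difference of 0.04 against 0.03 for all tested. The one that fell was Ddx5 1423645_a_at, for an RNA helicase that assists Drosha, at 12.58 with AdGFP, 12.14 and 12.16 with AdmiR7a and 12.04 with AdmiR7b (-0.47; limma adjusted p = 0.0463). The other 4 Ddx5 probe sets differed by -0.02 to 0.08 and did not pass. Nuclear transport genes, which share the Ran system with Xpo5, gave 0 calls among 19 probe sets of 8 genes in limma, 1 at an unadjusted p under 0.05, and a median of -0.08.

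Dicing and Argonaute loading held 2 probe sets that rose and 1 that fell among 20, from 9 of 11 genes, with a median of 0.13. Ago4 1453289_at, for the fourth Argonaute, read 5.83 with AdGFP, 6.52 and 6.54 with AdmiR7a and 6.47 with AdmiR7b. The miR-7 arrays were tightly grouped above AdGFP, and Ago4 rose by 0.68 ± 0.07 (limma adjusted p = 0.0278). Its other probe set, 1429779_at, differed by 0.11 (limma adjusted p = 0.485). Mov10, an RNA helicase bound to Argonaute, rose by 0.82 (limma adjusted p = 0.0323), from 3.40 with AdGFP, which is under the filter value. It read 4.27 on each AdmiR7a array and 4.10 with AdmiR7b, so Mov10 entered the test only through the arrays where it is high. This call, counted among the 2 that rose, is therefore tied to the filter. Hspa8 1431182_at, for a chaperone that helps load Argonaute, fell by 1.24 (limma adjusted p = 0.0390), whereas the gene's other 3 probe sets differed by -0.49 to -0.13 and did not pass.

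Downstream of Tnrc6, the deadenylation, decapping and translation list held 59 probe sets of 27 genes, of which 2 rose and 4 fell, with a median of 0.01. Cnot8, a deadenylase of the CCR4-NOT complex, fell with both of its probe sets. Probe set 1451102_at read 8.23 with AdGFP, 7.07 and 7.10 with AdmiR7a and 6.98 with AdmiR7b, and 1421135_a_at read 8.39, then 7.34 and 7.07, then 7.19. The levels with AdGFP were 2.27 and 2.28 times those with miR-7 (limma adjusted p = 0.0244 and 0.0290). Dcp2 1455070_at, for the decapping enzyme, rose by 0.57 (limma adjusted p = 0.0335), and its 1430150_at differed by 0.13 (limma adjusted p = 0.629). Eif4e2, a cap-binding repressor of translation, gave opposite calls: 1421985_a_at rose by 0.81 (limma adjusted p = 0.0321) and 1455108_at fell by 0.73 (limma adjusted p = 0.0300). Its probe sets 1435803_a_at and 1421986_at differed by 0.45 and 0.03 and did not pass (limma adjusted p = 0.0830 and 0.819). Tnrc6c, the third scaffold of its family, was lower at 1460363_at (-0.45; limma adjusted p = 0.0558) and at 1424645_at (-0.15; limma adjusted p = 0.482), and neither passed.

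In the tailing and turnover list, 1 of 17 probe sets from 8 of 11 genes rose. It was Tut4 1437395_at, for a uridylyltransferase that tails microRNA precursors, at 10.12 with AdGFP, 10.68 and 10.69 with AdmiR7a and 10.73 with AdmiR7b (0.58; limma adjusted p = 0.0300). The other 2 Tut4 probe sets differed by 0.17 and -0.05. Among RNA-binding relatives of Hnrnpk, 2 of 52 probe sets rose and 4 fell, from 20 of 21 genes, with a median of -0.04. The named ones were Pcbp2 1445381_at (0.73) and Hnrnpul2 1415765_at (0.53), which rose, and Hnrnpd 1457568_at (-1.33) and Pcbp3 1417526_at (-0.90), which fell. The other 2 Pcbp2 probe sets differed by -0.01 and -0.28 and the other Hnrnpul2 probe set by -0.10. The other Hnrnpd probe set, 1425142_a_at, differed by 0.24, opposite in sign, and the other Pcbp3 one, 1437722_x_at, by -0.99, in the same direction (limma adjusted p = 0.0802).

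**Figure D4:**
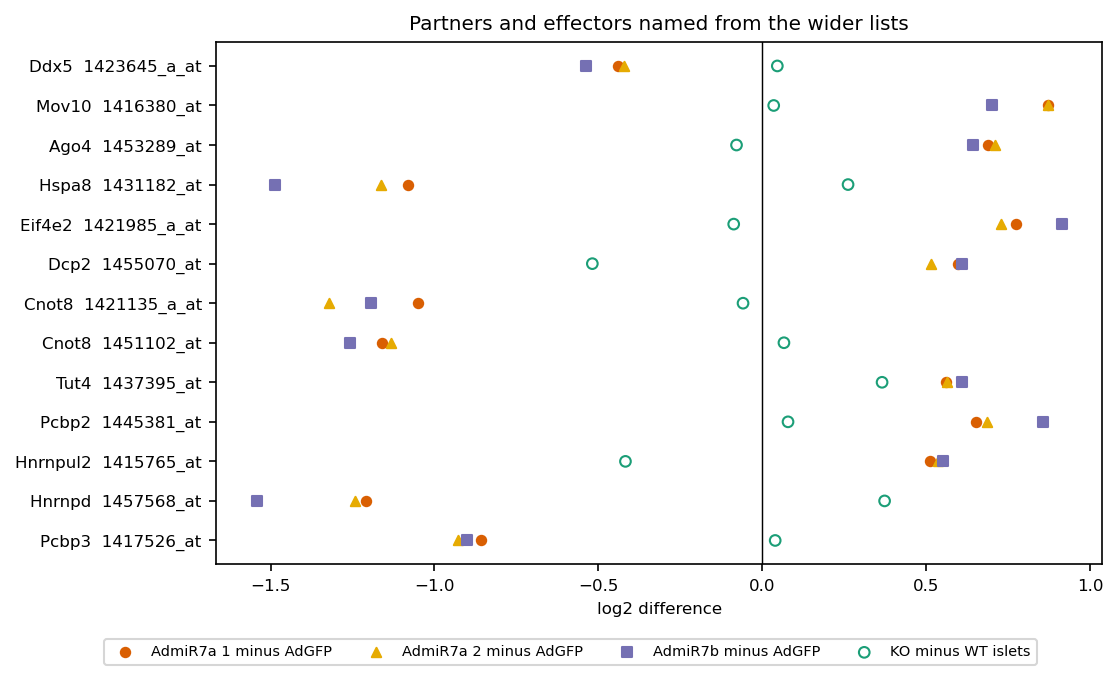
Log2 difference of each miR-7 array from the AdGFP array, and of KO from WT islets, for the 13 probe sets named from the lists. Within each row the 3 miR-7 arrays lie on the same side of 0, while the KO minus WT values lie between -0.52 (Dcp2) and 0.37 (Hnrnpd). The 13 were chosen for their calls in the pooled fit of these same miR-7 arrays, so the shared side follows from that choice.

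In islets, none of these 13 probe sets, chosen for their calls in MIN6, differed between KO and WT by 0.58, against 13.6% of all tested. That share is over probe sets with an islet mean of at least 4, whereas the 13 were filtered in MIN6. Pcbp2 1445381_at, at 3.94 in KO and 3.86 in WT, lay below the islet filter. Over the 6 lists, 11 of 204 probe sets were higher in KO by that size and 3 lower, against 8.24% and 5.31% of all tested. Dcp2 1455070_at read 8.72 in KO and 9.24 in WT, while the gene's 1430150_at was higher in KO by 0.83. Hnrnpul2 1415765_at read 8.94 and 9.35. Cnot8, which fell with miR-7 in MIN6, read 8.73 in KO and 8.66 in WT at 1451102_at. At 1421135_a_at it read 7.67 in KO and 7.73 in WT, a small step the other way. Ago4 1453289_at read 8.17 and 8.25, higher than on any MIN6 array, and 1429779_at was higher in KO by 0.55.

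For Ago2, Dicer1 and Hnrnpk, the probe set with the highest mean was compared with the 14841 probe sets of mean 6 or more, by the root mean square difference of values centred over the 6 arrays. Nearest to Ago2 1455389_s_at were N4bp2 (0.0194), Ap4s1 (0.0324) and Wapl (0.0343). Nearest to Dicer1 1427941_at were Otud7b (0.0237), Dedd (0.0293) and Bcap29 (0.0301), and nearest to Hnrnpk 1460547_a_at were Cfap298 (0.0338), Bicd2 (0.0348) and Acap2 (0.0352). N4bp2, for instance, read 8.65 with AdGFP, 8.87 and 8.82 with AdmiR7a, 8.83 with AdmiR7b, 8.55 in KO and 8.46 in WT, in the same order of systems as Ago2. With 6 arrays that share 1 normalization, such likeness is a description of these arrays.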

How the data were processed

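RNA from 4 MIN6 and 2 islet arrays was analysed. The authors deposited 1 log2 intensity per probe set and array, made with GCRMA and the affy package, per the submitters' processing notes, which give no versions; GCRMA corrects background from probe sequence and compresses weak signals to a floor, so differences near it are uninformative. Samples were grouped by their labels. Gene symbols came from the platform annotation, updated to RefSeq names. The members and lists were chosen with earlier results of these data known. All 10 genes' probe sets are named, and from each further list up to 4 called probe sets of largest size (2 highest, 2 lowest); likeness names the 3 nearest probe sets of other genes.

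The fits used limma 3.58.1 in R 4.3.3 per probe set with a mean of at least 4 over the arrays compared, Benjamini-Hochberg adjusted over all those tested, two-sided; control probe sets (64) were left out. The pooled fit had 2 residual degrees of freedom and the fit with a mean per vector 1. Both take the spread of the single AdGFP array to equal that of the miR-7 arrays. Comparisons of single arrays were counted by a log2 size of 0.58 or 1, with no p. Of these, the pooled fit was also run on simulated data with known changes. Alternatives were other filters, 1 value per gene, other scalings, an intensity trend and each miR-7 array left out; the single AdGFP, KO and WT arrays could not be.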

Additional observations from a re-analysis of the deposited data

How the results depend on the processing

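In the pooled fit, 1 of the 30 probe sets was called. The count was 3 with an intensity trend, 2 with a filter at 6, 2 after median centring, 2 after quantile renormalization and 2 without the probe sets at 1 value on all MIN6 arrays (chosen after seeing the data). It was 0 without a filter, 0 with the highest probe set per gene and 0 to 0 when each miR-7 array was left out. Over all probe sets 3288 were called, and 0 to 0 without any one miR-7 array, where 6295 to 6427 had an unadjusted p under 0.05 in limma (3 to 5 of the 30). Tnrc6b 1426545_at lost its call without a filter (limma adjusted p = 0.151). Dicer1 1460571_at passed with a filter at 6 (limma adjusted p = 0.0265), with an intensity trend, and after median centring or quantile renormalization. It also passed without the probe sets at 1 value on all MIN6 arrays. Without a filter, or with a miR-7 array left out, it did not pass. With gene means the 1 gene called was Dicer1 (0.48; adjusted p = 0.0365) and not Tnrc6b (0.24; adjusted p = 0.0709). For AdmiR7a the count of 0 became 1 after centring and 1 after renormalization; over all it became 1728 without a filter, 1324 with a filter at 6, 967 with gene means, 2894 after centring and 2553 after renormalization. AdmiR7b minus AdmiR7a gave 1 without a filter, and 1362 over all. For AdmiR7b by size, 3 became 0 under a limma contrast that borrows the AdmiR7a spread, 1 with the highest probe set and 0 at a size of 1; over all, 4888 became 0, 2417 and 1749, and 1794 with gene means. For KO against WT, 1 became 2 without a filter, 0 with the highest probe set, 0 with gene means and 0 at a size of 1; over all, 2818 became 1550 with a filter at 6, 933, 735 and 989. For AdGFP against WT, 8 became 2 with the highest probe set, 3 with gene means and 3 at a size of 1; over all, 12519 became 6226 and 5206 with the first 2 of these. The cause of these shifts was not tested, except that 1 value per gene tests fewer features. Signs turned only near 0: Drosha 1428656_at gave 0.0005 after renormalization and -0.0376 to 0.0115 with 1 miR-7 array left out, Drosha 1438505_s_at -0.0529 to 0.0061, Xpo5 1428560_at -0.0465 to 0.0764 and Tnrc6a 1434898_at -0.0182 to 0.0404, and the last -0.0008 after centring. The counts of AdmiR7a and of AdmiR7b minus AdmiR7a have no test when an AdmiR7a array is left out, since no residual degree of freedom is left. No paired analysis was possible because the labels number replicates for AdmiR7a alone, so no pair of groups shares 2 numbers. The floor of the values and the number of arrays limit what can be read from weak probe sets.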

Other observations

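The mir-7b hairpin lies 183 bases beyond the annotated end of a long noncoding RNA on the same strand of chromosome 17, A230051N06Rik, which had 1 probe set on the array. This RNA was chosen after its own values were seen, so its difference is a selected one. A230051N06Rik read 7.38 with AdGFP, 8.20 and 7.96 with AdmiR7a, 8.34 with AdmiR7b, 8.56 in KO and 8.53 in WT islets. Every miR-7 array was above AdGFP, and the pooled difference of 0.78 ± 0.18 did not pass the test (limma adjusted p = 0.0671).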
